A study of Mus musculus with 4 samples.

Results

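Hybrid cells were defined here as cell barcodes of mammary organoid cultures that carried both the keratins of luminal cells and the keratins of basal cells. A barcode counted as hybrid when it held at least 3000 unique molecular identifiers (UMIs, each standing for 1 captured RNA molecule) with at most 15% from mitochondrial genes, when Krt8 and Krt18 together reached 20 per 10,000 UMIs, and when Krt5, Krt14 and Krt17 together reached 10 per 10,000 UMIs. Barcodes with a sum of Col1a1, Col1a2 and Col3a1 of 10 or more, or of C1qa, C1qb and Tyrobp of 5 or more, were left out as carrying fibroblast or macrophage RNA. The rule selected 511 of the 15344 barcodes that passed the depth and mitochondrial limits, out of 19382 deposited. It used measured keratin levels, so these levels are given below as a description only.

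The mammary epithelium is a bilayer. Luminal cells line the duct, express Krt8, Krt18 and Krt19 and are divided into a hormone receptor-positive and a receptor-negative, milk-producing lineage. Basal or myoepithelial cells lie on the basement membrane, express Krt5, Krt14 and Krt17 under the control of regulators such as Trp63, and carry the smooth muscle proteins that eject milk. Cells with both keratin sets are known from the fetal gland, from regenerating and cultured mouse mammary epithelium and from some tumours. A droplet that captures a luminal and a basal cell together gives the same keratin pattern.

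The organoids came from mammary fat pads whose lymph nodes had been removed, taken from virgin mice aged 8 to 9 weeks. Dissociated organoids from 4 matrices were measured by droplet single-cell RNA sequencing: COL1 (collagen), STIFF (a stiff matrix), MATR (Matrigel, a basement membrane extract) and SOFT (a soft matrix). COL1 and STIFF cells shared 1 channel of the chip and MATR and SOFT cells the other, and hashtag antibodies, which bind cells and carry a readable tag, marked the culture. Each matrix was 1 culture, and neither genotype, strain, number of animals nor pooling of animals is given in the sources used here. The labels call the first pool stiff and the second soft, and which hashtag belongs to which culture was taken from the names of the deposited matrices. With 1 culture a matrix and 1 channel a pool there were no replicates, so no test was possible. The 2 pools are given side by side, and intervals are exact 95% Clopper-Pearson intervals that cover counting error only. All levels are summed counts per 10,000 UMIs.

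The pools were of like depth, with 133608252 UMIs over 10615 barcodes for COL1 and STIFF and 131036333 UMIs over 8767 barcodes for MATR and SOFT, and 22 barcode sequences occurred in both. In the COL1 and STIFF pool 302 of 7668 kept barcodes were hybrid, or 3.94% (95% interval 3.51 to 4.4). In the MATR and SOFT pool 209 of 7676 were hybrid, or 2.72% (2.37 to 3.11). They were set against barcodes past the luminal limit alone (4820 and 5558, called luminal-keratin) and barcodes past the basal limit alone (1058 and 523, called basal-keratin). The median hybrid barcode had more genes detected, 4297.5 and 3906, against 3459.5 and 3492 in luminal-keratin and 2694.5 and 2725 in basal-keratin barcodes. Mitochondrial RNA made up a median of 3.67% and 3.56% of hybrid UMIs, against 3.59% and 3.87% in luminal-keratin and 4.05% and 3.91% in basal-keratin barcodes.

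The keratins are described first. The rule cut the classes on their sums, so these sums do not test the label. Hybrid barcodes carried luminal keratins at the luminal level and basal keratins between the luminal and the basal level, in amounts that depended on the gene. The median sum of Krt8 and Krt18 per barcode was 50.8 and 60.3 in hybrids of the COL1 and STIFF and the MATR and SOFT pool, against 52.8 and 48.6 in luminal-keratin and 3.89 and 3.88 in basal-keratin barcodes. The median sum of Krt5, Krt14 and Krt17 was 18.2 and 16.5 in hybrids, against 0 in luminal-keratin barcodes of both pools and 30.4 and 21.9 in basal-keratin barcodes. Keratins are intermediate filament proteins that work as pairs of an acidic and a basic partner. The basal sum of hybrids was made of Krt14 and Krt17, the acidic partners, more than of Krt5, the basic partner of Krt14. Krt5 stood at 1.71 and 0.894 in hybrids, against 0.0819 and 0.0393 in luminal-keratin and 9.11 and 6.94 in basal-keratin barcodes. Krt14 was 12.4 and 14 in hybrids, 0.964 and 0.682 in luminal-keratin and 20.8 and 15.7 in basal-keratin barcodes. Krt17, a keratin known for its appearance in stressed and wounded epithelium, was 13.0 and 5.90 in hybrids, 0.187 and 0.137 in luminal-keratin and 6.86 and 5.61 in basal-keratin barcodes, so that in the COL1 and STIFF pool it lay above the basal level.

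Of the luminal keratins that the rule did not use, Krt7 and Krt19 went opposite ways. Krt7, the partner of Krt19 in simple epithelia, was 11.5 and 10.8 in hybrids, against 4.61 and 5.55 in luminal-keratin and 0.776 and 0.769 in basal-keratin barcodes. Krt19 was 23.8 and 26.7 in hybrids, against 56.4 and 60.6 in luminal-keratin and 1.65 and 1.64 in basal-keratin barcodes. When each barcode was thinned to 3000 UMIs, Krt5 was found in 25.2% and 10.5% of hybrids, against 1.76% and 0.810% of luminal-keratin and 85.9% and 76.9% of basal-keratin barcodes. Most hybrids therefore held their basal keratin sum with no Krt5 molecule at that depth.

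**Figure D1:**
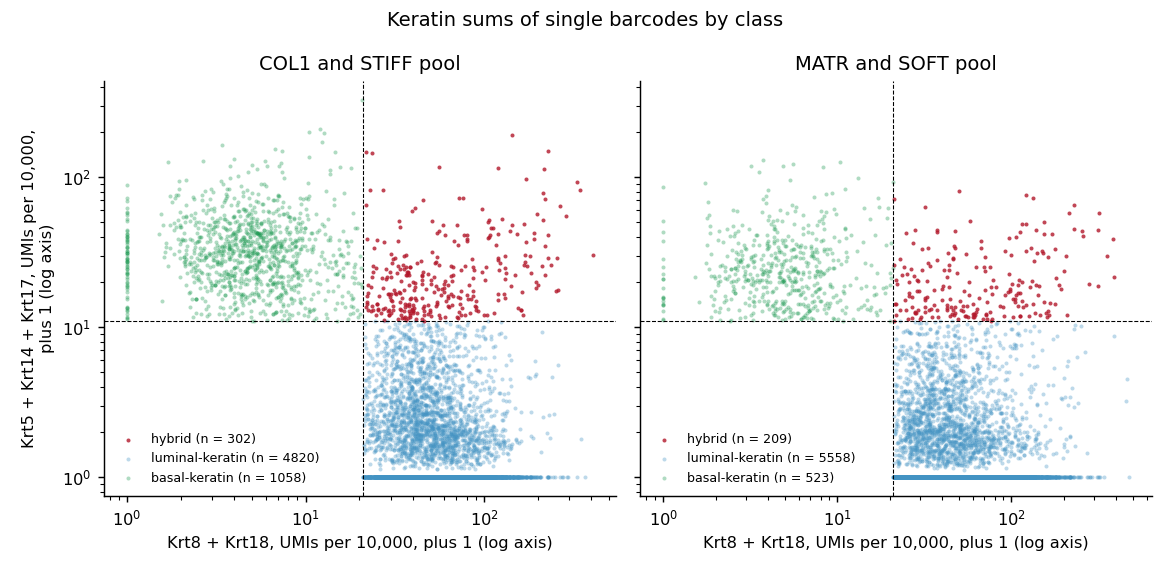
Each point is 1 barcode, with the sum of Krt8 and Krt18 on the horizontal axis and the sum of Krt5, Krt14 and Krt17 on the vertical axis, both in UMIs per 10,000 plus 1 on log axes, and the dashed lines mark the limits of 20 and 10. The 302 and 209 hybrid barcodes fill the upper right corner next to the luminal-keratin and basal-keratin barcodes.

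The limits cut through a continuous range. The 51 and 48 hybrids with a basal sum between 10 and 12 had Acta2, the smooth muscle actin of myoepithelium, at 6.74 and 4.71, against 2.91 and 3.72 in the 60 and 59 luminal barcodes just outside with a sum between 8 and 10. Other genes described below went the other way at this limit. Ankrd1 was 0.399 and 0.463 inside, against 0.428 and 0.993 outside. Aldh1a3 was 0.595 and 0.359 inside, against 0.997 and 0.810 outside. Of the 10 genes farthest above both classes, Tuba1a was also higher outside in both pools. Fn1, Csf3 and Ddah1 were higher inside, and the rest differed in order between the pools. The 22 and 15 hybrids with a luminal sum between 20 and 24 had Krt19 at 12.4 and 16.6, against 5.88 and 3.61 in the 33 and 16 barcodes with a sum between 16 and 20. Barcodes that met both keratin limits were also found among those with fibroblast genes, 5 of 573 (0.873%) and 4 of 322 (1.24%), and among those with macrophage genes, 15 of 492 (3.05%) and 0 of 456, which allows a share of up to 0.806%. The second number of each pair counts the barcodes past that other cell type's limit.

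Markers of other cell types were low in hybrids. For the fibroblast and macrophage lists this was partly set by the rule. They hold Col1a1, Col1a2, Col3a1, C1qa, C1qb and Tyrobp, whose sums the rule limited in hybrids and in both keratin classes. The summed level of 8 fibroblast markers was 2.51 and 2.12 in hybrids, against 6.66 and 8.52 in luminal-keratin and 0.991 and 0.776 in basal-keratin barcodes, and most of it was Dcn, at 2.15 and 1.85 in hybrids, with Dpt at 0. Macrophage markers summed to 0.840 and 1.44 in hybrids, 1.01 and 1.06 in luminal-keratin and 1.14 and 1.26 in basal-keratin barcodes. Pericyte markers, which share contractile genes with myoepithelium, summed to 0.298 and 0.246 in hybrids, 0.401 and 0.421 in luminal-keratin and 0.218 and 0.253 in basal-keratin barcodes, with Rgs5 and Abcc9 at 0 in hybrids. Endothelial, lymphocyte, adipocyte and Schwann cell markers summed to at most 0.699 in hybrids, where 3 of 8, 6 of 8, 4 of 6 and 1 of 6 of them stood at 0.

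Hybrid barcodes were then described by the measures that bear on doublets, droplets that hold a pair of cells. By depth, hybrids lay between single luminal barcodes and the sum of a luminal and a basal barcode. The median hybrid of COL1 and STIFF held 18409.5 UMIs, and that of MATR and SOFT 15853. Luminal-keratin barcodes had medians of 12597.5 and 13318, and basal-keratin barcodes 8715 and 9055, which add to 21312.5 and 22373. The hybrid median was 1.46 and 1.19 times the luminal-keratin median, and 0.864 and 0.709 of the sum. Barcodes that mixed luminal keratins with fibroblast or with macrophage genes served for comparison. Luminal and fibroblast barcodes (100 and 41) reached 0.974 and 1.17 of the sum of their parts. Luminal and macrophage barcodes (157 and 70) reached 1.14 and 0.961 of theirs. The hybrid ratio was the lowest of the 3 kinds of mixture in both pools. The limits behind these mixtures were not alike. The basal limit of 10 stood against basal-keratin medians of 30.4 and 21.9. The collagen limit of 10 stood against fibroblast medians of 124 and 127, and the macrophage limit of 5 against 122 and 124. A pair with a deep luminal partner can thus fall below the basal limit, and the part of this in the ratio was not tested.

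By hashtags, a lower share of hybrids than of these mixtures carried both tags, with intervals that do not overlap. HTODemux, which calls a tag present above the 0.99 quantile of its background, found both tags on 18 of the 302 hybrids of COL1 and STIFF (5.96%, 3.57 to 9.26) and on 10 of the 209 of MATR and SOFT (4.78%, 2.32 to 8.62). Luminal-keratin barcodes carried both in 3.28% and 3.35%, and basal-keratin barcodes in 0.662% and 0.382%. Multiplying the tag shares of the luminal-keratin and basal-keratin barcodes gives 11% and 13% for random pairs of them. Luminal and fibroblast barcodes carried both tags in 26.0% and 39.0%, where the tag shares give 20.3% and 20.4%, and luminal and macrophage barcodes in 29.9% and 35.7%, where they give 31.6% and 37.0%.

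HTODemux gave no tag to 43.0% and 47.8% of hybrids, against 42.5% and 39.0% of luminal-keratin and 73.7% and 65.0% of basal-keratin barcodes. No tag was given to 24% and 12.2% of luminal and fibroblast and to 9.55% and 0% of luminal and macrophage barcodes. The hashtags thus left many barcodes without information. Among barcodes with a tag, both were on 10.5% (6.32 to 16.03) and 9.17% (4.49 to 16.2) of hybrids. Luminal and fibroblast barcodes had 34.2% (23.7 to 45.99) and 44.4% (27.9 to 61.9). Luminal and macrophage barcodes had 33.1% (25.4 to 41.5) and 35.7% (24.6 to 48.1). The hybrid intervals again lay below the others. A second rule divided each tag by its background and called both tags wherever each reached 4 times background. Of the barcodes left, those with 1 tag at least 2 times the other were given that tag alone. It found both on 28 (9.27%) and 17 (8.13%) hybrids, against 31.7% and 47.6% from the tag shares. Under this rule luminal and fibroblast barcodes had 33.0% and 51.2%, against 41.2% and 50.1%, and luminal and macrophage barcodes 32.5% and 40%, against 47.7% and 51.9%. Pairs of cells of the same culture carry 1 tag and are not seen by this measure, and doublets were not removed. Per 100 basal-keratin barcodes there were 28.5 and 39.96 hybrids. Per 100 fibroblast barcodes there were 21.8 and 14.9 luminal mixtures, and per 100 macrophage barcodes 50.3 and 18.3.

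**Figure D2:**
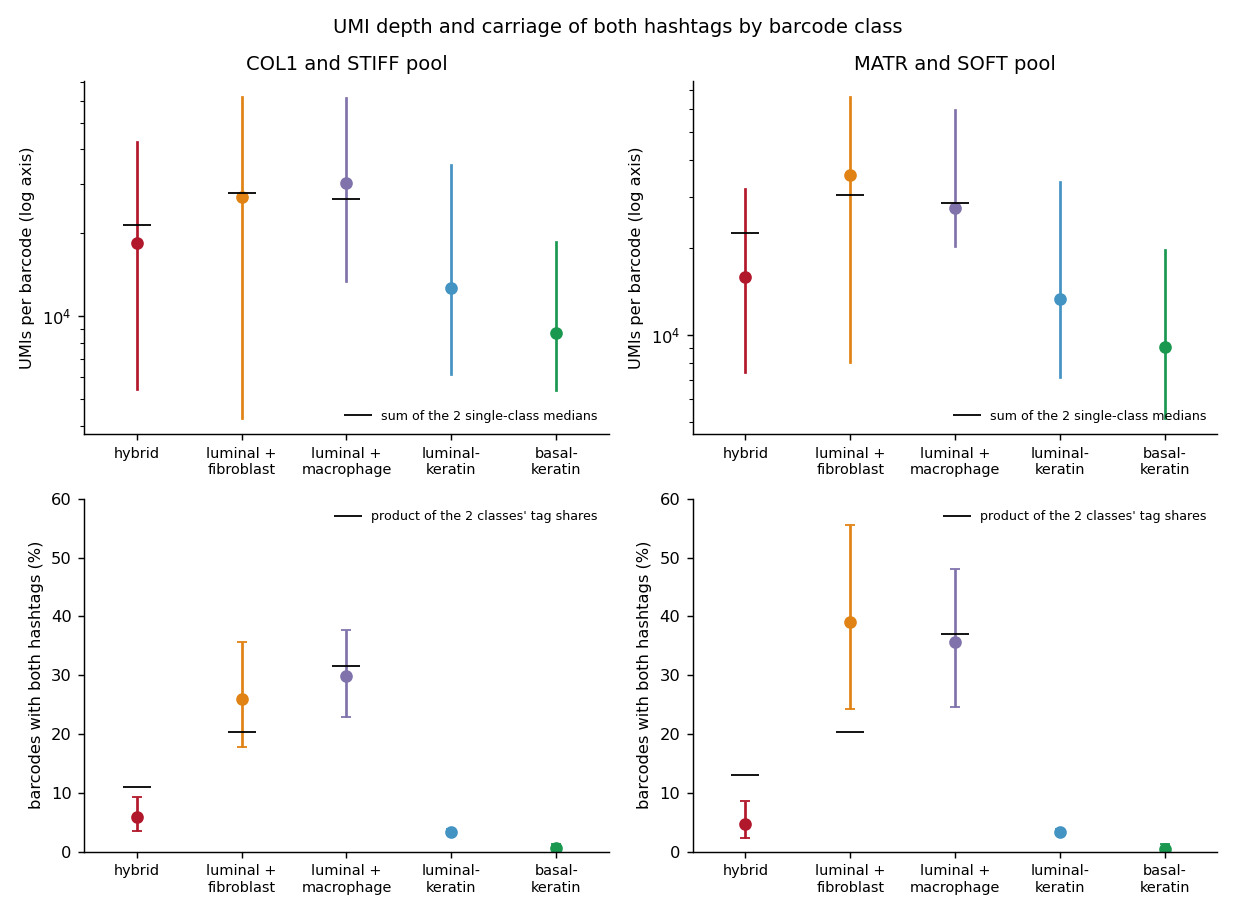
The upper panels show the median UMIs per barcode (points) with the 10th to 90th percentile (lines) on a log axis for hybrids, the other mixtures and the single classes, with a mark at the sum of the medians of the 2 classes that make each mixture, and the lower panels show the percentage of barcodes with both hashtags with exact 95% intervals beside the product of the tag shares. Hybrid medians of 18409.5 and 15853 UMIs lie below their marks, and 5.96% and 4.78% of hybrids carry both tags.

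Genes were compared where hybrids or a keratin class reached a level of 0.2 in each pool. A gene could thus enter through its hybrid level alone, as Ankrd1, Aldh1a3, Nes, Csf3, Tnnt2 and Ddah1, described below, did. Of these 6316 genes, 23 (0.364%) were at least 2-fold higher in hybrids than in both keratin classes in both pools. Ratios were on the log2 scale with a pseudocount of 0.1, and 0 genes were 2-fold lower than both. Since the barcodes were chosen by other genes of the same profile, these counts describe the members and were not tested. The same count was 0 of 6528 genes for luminal and fibroblast barcodes and 1 of 6269 (0.016%, Acta2) for luminal and macrophage barcodes, each against its own 2 classes. These sets were smaller, with 100 and 41 and with 157 and 70 barcodes. Their second classes also differed, and a gene high in fibroblasts could not be above both there. The counts are therefore not like measures.

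The gene farthest above both classes was Ankrd1, an ankyrin repeat protein of nucleus and sarcomere and a much-used target gene of the YAP coactivator, which acts through TEAD factors in spread and stretched cells. Ankrd1 was 1.73 and 1.37 in hybrids, against 0.0300 and 0.0637 in luminal-keratin and 0.0370 and 0.0370 in basal-keratin barcodes. By culture Ankrd1 was 1.95 in STIFF hybrids, 0.917 in COL1, 1.64 in SOFT and 0.206 in MATR hybrids. Its UMIs were found in 66 of 302 and 35 of 209 hybrids, and 93.1% and 96.1% of them lay in the 30 and 21 hybrids with the most. Thinned to 3000 UMIs, 12.3% (8.77 to 16.5) and 9.57% (5.94 to 14.4) of hybrids held a UMI, against 0.373% and 0.648% of luminal-keratin and 0.567% and 0.765% of basal-keratin barcodes. A minority of hybrids thus carried nearly all of the Ankrd1 RNA. The log2 ratio over the higher class was 3.74 and 3.16.

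Further genes above both classes differed in known function. Fn1, the matrix protein fibronectin, was 5.28 and 3.14 in hybrids, against 0.169 and 0.180 in luminal-keratin and 0.661 and 0.357 in basal-keratin barcodes. By culture Fn1 was 5.61 in STIFF hybrids, 5.90 in COL1, 4.52 in SOFT and 0.926 in MATR hybrids. In thinned barcodes Fn1 was found in 26.8% and 25.4% of hybrids, against 3.46% and 3.04% of luminal-keratin and 7.09% and 5.54% of basal-keratin barcodes, so it was spread over more hybrids than Ankrd1. Aldh1a3, an enzyme of retinoic acid synthesis used as a marker of luminal progenitors, was 0.898 and 1.29 in hybrids, 0.111 and 0.109 in luminal-keratin and 0.0150 and 0.0088 in basal-keratin barcodes. Timp1, an inhibitor of matrix metalloproteinases, was 2.28 and 3.18 in hybrids, 0.421 and 0.472 in luminal-keratin and 0.709 and 0.450 in basal-keratin barcodes.

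Nes, Tubb2b, Tuba1a and Tnnt2 encode cytoskeletal proteins. Nes, the intermediate filament nestin, was 0.514 and 0.410 in hybrids, 0.0629 and 0.0556 in luminal-keratin and 0.0458 and 0.0299 in basal-keratin barcodes. Tubb2b, a beta tubulin, was 1.95 and 1.85 in hybrids, 0.456 and 0.530 in luminal-keratin and 0.175 and 0.227 in basal-keratin barcodes. Tuba1a, an alpha tubulin, was 3.24 and 3.05 in hybrids, 0.811 and 0.723 in luminal-keratin and 1.16 and 1.05 in basal-keratin barcodes, and in thinned barcodes it was found in 44.0% and 47.4% of hybrids, against 18.2% and 16.3% of luminal-keratin and 24.6% and 22.2% of basal-keratin barcodes. Tubulin genes have near-identical copies, and their counts are less certain for that reason. Tnnt2, cardiac troponin T, was 0.369 and 0.607 in hybrids, 0.0891 and 0.160 in luminal-keratin and 0.0722 and 0.0633 in basal-keratin barcodes.

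Csf3 and Ddah1 complete the 10 genes farthest above both classes. Csf3, the granulocyte growth factor G-CSF, was 0.356 and 0.989 in hybrids, 0.0751 and 0.0621 in luminal-keratin and 0.0176 and 0.0299 in basal-keratin barcodes. By culture Csf3 was 0.432 in STIFF hybrids, 0.0393 in COL1, 0.885 in SOFT and 2.43 in the 22 MATR hybrids. Of its UMIs in MATR and SOFT hybrids, 96.4% lay in the 21 barcodes with the most and 24.4% in 1 barcode, so no order of the cultures was read from it. Ddah1, which breaks down an inhibitor of nitric oxide synthesis, was 0.353 and 0.305 in hybrids, 0.0844 and 0.0715 in luminal-keratin and 0.0211 and 0.0194 in basal-keratin barcodes. Of the 10, Fn1, Timp1, Nes, Tuba1a and Ddah1 were higher still in barcodes past the fibroblast limit alone. There Fn1 was 9.83 and 10.0 and Timp1 30.8 and 30.7. Ankrd1, Aldh1a3, Tubb2b, Csf3 and Tnnt2 were lower there than in hybrids. In barcodes past the macrophage limit alone Fn1 was 4.30 and 5.47. The part of RNA from other cells in these levels was not tested. The remaining 13 genes were Tm4sf1, Sox11, Zyx, Tmsb4x, Endod1, Anxa1, Fdps, Ddx39, Cxcl1, Ctla2b, Epb41l4a, Gjb2 and Nme1. Sox11, a transcription factor of the embryonic mammary rudiment in mice, was 0.404 and 0.307 in hybrids, 0.0243 and 0.0310 in luminal-keratin and 0.0634 and 0.0809 in basal-keratin barcodes. Anxa1, a phospholipid-binding annexin, was 23.4 and 19.6 in hybrids, 8.09 and 8.98 in luminal-keratin and 1.63 and 1.32 in basal-keratin barcodes. Tmsb4x, the actin-binding thymosin beta 4, was the most abundant, at 105.2 and 103.2 in hybrids, 44.0 and 46.7 in luminal-keratin and 36.7 and 40.4 in basal-keratin barcodes.

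**Figure D3:**
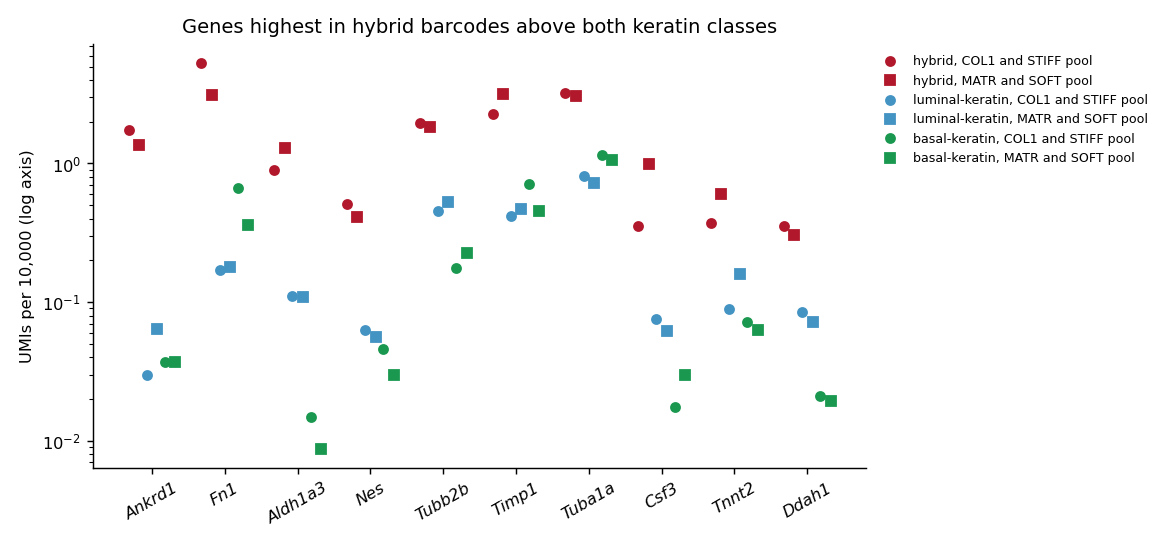
Levels of the 10 genes farthest above both keratin classes, in UMIs per 10,000 on a log axis, with hybrids left of luminal-keratin and basal-keratin barcodes and a point for each pool. Ankrd1, at 1.73 and 1.37 in hybrids and at most 0.0637 in either class, shows the widest gap.

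Depth and hashtags moved with this set of genes. In hybrids at or below the luminal-keratin median depth (97 and 74 barcodes) 5 genes were above both classes, of which Ankrd1, Tubb2b, Csf3 and Gjb2, a gap junction connexin, were among the 23 and Ltbp2, a matrix protein of the fibrillin family, was not. Ankrd1 was 0.206 and 0.502 in these shallow hybrids, against 1.91 and 1.54 in the deeper ones. The 18 and 10 hybrids with both hashtags, with medians of 37225.5 and 31123.5 UMIs, had Ankrd1 at 0.378 and 0.434. Hybrids with a single hashtag (154 and 99) had 1.76 and 1.32, and those without a hashtag call (130 and 100) had 2.21 and 1.70. Among single-hashtag hybrids 27 genes were above both classes, 22 of them among the 23. Leaving out the 10% of hybrids highest for the 10 genes, an alternative chosen after seeing the data, gave 13 genes. The part of depth in these levels was not tested.

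Promoter sequences, the 250 bases before the annotated start site, were read from RefSeq (GRCm38.p6) for 15 of the 23 genes, because the leading gene is a known TEAD target. The letters GGAATG, the core of TEAD-type sites, were searched on both strands, on which the reverse complement reads CATTCC, and the 2 do not overlap each other. They occurred in 4 of the 15 genes (26.7%), against 3880 of all 27025 genes with a promoter in the table (14.4%). A match describes letters only. The 4 windows are printed 5′ to 3′ on the gene's strand with the match in capitals. They are Ankrd1 (chr19:36119845-36120094, minus strand, matches starting 210 and 123 bases before the start site), Timp1 (chrX:20869916-20870165, plus strand, 247 bases before), Tnnt2 (chr1:135836084-135836333, plus strand, 27 bases before) and Anxa1 (chr19:20390672-20390921, minus strand, 236 bases before).
Ankrd1: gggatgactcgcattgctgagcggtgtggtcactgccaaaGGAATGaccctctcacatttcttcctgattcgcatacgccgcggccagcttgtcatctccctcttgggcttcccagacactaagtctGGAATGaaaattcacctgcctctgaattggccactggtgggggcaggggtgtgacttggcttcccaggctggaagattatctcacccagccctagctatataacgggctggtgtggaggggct
Timp1: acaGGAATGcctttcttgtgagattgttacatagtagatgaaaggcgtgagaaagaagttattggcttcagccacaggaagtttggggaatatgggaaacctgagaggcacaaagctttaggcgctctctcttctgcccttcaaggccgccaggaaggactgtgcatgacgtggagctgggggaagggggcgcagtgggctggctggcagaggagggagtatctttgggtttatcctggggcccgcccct
Tnnt2: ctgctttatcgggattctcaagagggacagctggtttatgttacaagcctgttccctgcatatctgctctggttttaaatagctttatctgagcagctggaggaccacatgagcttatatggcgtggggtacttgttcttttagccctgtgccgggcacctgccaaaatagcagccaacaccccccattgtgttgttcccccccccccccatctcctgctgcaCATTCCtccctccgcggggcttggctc
Anxa1: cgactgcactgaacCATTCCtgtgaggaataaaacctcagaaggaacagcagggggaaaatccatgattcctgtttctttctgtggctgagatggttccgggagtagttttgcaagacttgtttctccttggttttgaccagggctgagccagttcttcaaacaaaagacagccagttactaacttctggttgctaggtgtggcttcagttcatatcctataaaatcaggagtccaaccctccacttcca

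Against luminal-keratin barcodes, hybrids were at least 2-fold higher for 158 genes (2.5% of those tested) and lower for 87 (1.38%). Against basal-keratin barcodes they were higher for 298 (4.72%) and lower for 269 (4.26%). Genes of the contractile program of myoepithelium were mostly in between. Of 12 contractile genes, 11 were at least 2-fold higher in hybrids than in luminal-keratin barcodes and 7 were at least 2-fold lower than in basal-keratin barcodes. Their median log2 ratio over luminal-keratin was 3.01 and 2.21, where the median of all tested genes was 0.03 and 0.05, and over basal-keratin it was -1.24 and -2.33, where that of all genes was 0.10 and 0.12. The 12 genes summed to 65.9 and 40.3 in hybrids, 6.42 and 6.05 in luminal-keratin and 105 and 124 in basal-keratin barcodes.

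Acta2 was 11.9 and 5.48 in hybrids, 0.352 and 0.226 in luminal-keratin and 27.2 and 30.4 in basal-keratin barcodes. Tagln, the actin-binding transgelin, was 15.6 and 6.14 in hybrids, 0.468 and 0.290 in luminal-keratin and 25.7 and 29.4 in basal-keratin barcodes. Both were higher in the hybrids of the COL1 and STIFF pool than in those of the MATR and SOFT pool. The tropomyosin Tpm1 alone among the 12 was above the basal-keratin level in both pools, at 12.7 and 9.40 in hybrids, 3.41 and 3.25 in luminal-keratin and 6.19 and 6.66 in basal-keratin barcodes. Cald1, caldesmon, was close to the basal-keratin level, at 9.66 and 9.15 in hybrids against 1.19 and 1.25 in luminal-keratin and 10.9 and 12.1 in basal-keratin barcodes. Oxtr, the oxytocin receptor that triggers contraction, was 0.3 and 0.228 in hybrids, 0.0729 and 0.0630 in luminal-keratin and 1.53 and 1.83 in basal-keratin barcodes. Oxtr and the smooth muscle myosin Myh11, with log2 ratios over basal-keratin of -2.02 and -2.56 and of -2.15 and -2.65, lay farther below the basal level than Tpm1 and Cald1.

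The regulators of basal identity were low. Of 10 tested basal regulators, 2 were at least 2-fold over luminal-keratin and 9 at least 2-fold under basal-keratin barcodes. The median log2 ratios were 0.79 and 0.64 over luminal-keratin and -1.80 and -1.89 over basal-keratin. Trp63, the master regulator of basal epithelia, was 0.153 and 0.161 in hybrids, 0.0151 and 0.0116 in luminal-keratin and 0.928 and 0.984 in basal-keratin barcodes. In thinned barcodes it was found in 4.30% and 1.44% of hybrids, against 0.456% and 0.180% of luminal-keratin and 20.5% and 23.9% of basal-keratin barcodes. Id4, an inhibitor of helix-loop-helix factors that marks basal cells, was 0.947 and 0.640 in hybrids, 0.0699 and 0.0512 in luminal-keratin and 5.53 and 4.72 in basal-keratin barcodes. Tspan8, a surface protein of a basal subset, was the exception among the 10, at 1.27 and 1.42 in hybrids, 1.59 and 0.890 in luminal-keratin and 0.835 and 0.639 in basal-keratin barcodes.

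Basement membrane and adhesion genes of basal cells were in between. Of 15, 3 were at least 2-fold over luminal-keratin (Col17a1, a hemidesmosomal collagen, Bcam, a laminin receptor, and Sparc, a matrix glycoprotein) and 9 at least 2-fold under basal-keratin barcodes. Sparc was 3.57 and 2.32 in hybrids, 0.376 and 0.220 in luminal-keratin and 16.4 and 16.9 in basal-keratin barcodes. The integrin subunit Itgb1, common to most matrix receptors, was at the basal level, with 5.36 and 5.61 in hybrids, 2.69 and 2.59 in luminal-keratin and 5.13 and 4.59 in basal-keratin barcodes. The laminin receptor subunit Itga6 stayed at the luminal level, with 1.07 and 1.07 in hybrids, 0.953 and 1.07 in luminal-keratin and 2.89 and 3.36 in basal-keratin barcodes. Tnc, the matrix protein tenascin C, was 3.41 and 2.04 in hybrids, 0.104 and 0.0905 in luminal-keratin and 1.49 and 1.41 in basal-keratin barcodes.

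Luminal genes differed by list. Of 12 tested pan-luminal genes, 10 were at least 2-fold over basal-keratin barcodes and 2, Krt19 and the transcription factor Elf3, at least 2-fold under luminal-keratin. Epcam, an epithelial adhesion molecule, was 19.3 and 25.1 in hybrids, 19.8 and 20.1 in luminal-keratin and 4.53 and 5.10 in basal-keratin barcodes. The tight junction gene Cldn7 was likewise at the luminal level, with 5.59 and 5.94 in hybrids, 5.36 and 5.27 in luminal-keratin and 0.311 and 0.317 in basal-keratin barcodes. Clu, the secreted chaperone clusterin, was above it, at 18.9 and 26.2 in hybrids, 12.5 and 14.7 in luminal-keratin and 1.18 and 1.24 in basal-keratin barcodes.

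Of 9 tested receptor-positive genes, 8 were at least 2-fold under luminal-keratin and 5 at least 2-fold over basal-keratin barcodes, with median log2 ratios of -1.39 and -1.44 over luminal-keratin. Prlr, the prolactin receptor, was 4.24 and 2.75 in hybrids, 15.3 and 11.7 in luminal-keratin and 0.265 and 0.246 in basal-keratin barcodes. Areg, an epidermal growth factor receptor ligand made by receptor-positive cells, was 5.33 and 5.41 in hybrids, 16.9 and 15.4 in luminal-keratin and 0.327 and 0.229 in basal-keratin barcodes. Pgr, the progesterone receptor, was 0.414 and 0.287 in hybrids, 1.25 and 1.26 in luminal-keratin and 0.125 and 0.102 in basal-keratin barcodes. The receptor-negative list differed. Of its 11 tested genes, 1 (Aldh1a3) was over and 0 under luminal-keratin by 2-fold, and 9 were over basal-keratin, with median log2 ratios of -0.24 and -0.29 over luminal-keratin. Elf5, the regulator of the milk-producing lineage, was 1.08 and 0.874 in hybrids, 1.63 and 1.5 in luminal-keratin and 0.180 and 0.197 in basal-keratin barcodes. Csn3, kappa casein, was 29.4 and 16.7 in hybrids, 49.2 and 31.5 in luminal-keratin and 4.47 and 2.69 in basal-keratin barcodes.

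The share of receptor-positive cells was lower among hybrids. A sum of the receptor-positive genes of 10 or more, a limit chosen after seeing the data, was reached by 113 (37.4%) and 64 (30.6%) hybrids, against 65.7% and 68.0% of luminal-keratin and 9.45% and 8.03% of basal-keratin barcodes. In barcodes thinned to 3000 UMIs the shares were 38.4% and 33.5% of hybrids, 66.4% and 68.3% of luminal-keratin and 14.7% and 13.0% of basal-keratin barcodes. Near the limit, between 7 and 14, lay 19 and 12 hybrids.

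The place of each gene between the classes was also expressed as a position, 0 at the luminal-keratin and 1 at the basal-keratin level, for genes at least 4-fold different between the classes. Genes higher in luminal-keratin barcodes had a median position of 0.569 (310 genes) and 0.567 (294 genes), and genes higher in basal-keratin barcodes 0.193 (315 genes) and 0.152 (326 genes). Levels of hybrids thus lay farther from the luminal level for luminal genes than for basal genes. By list, the median was 0.390 and 0.168 for contractile genes, 0.194 and 0.113 for basal adhesion and 0.148 and 0.126 for basal regulators. It was 0.264 and 0.242 for pan-luminal, 0.717 and 0.716 for receptor-positive and 0.379 and 0.470 for receptor-negative genes.

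Of the lists tied to plasticity, few members differed from both classes. Of 5 tested mesenchymal genes, 3 (Vim, Fn1 and S100a4) were at least 2-fold over luminal-keratin barcodes, and Vim, vimentin, was 3.31 and 2.68 in hybrids, 0.298 and 0.188 in luminal-keratin and 3.87 and 3.73 in basal-keratin barcodes. The transcription factors of epithelial-mesenchymal transition Zeb1, Zeb2, Snai1 and Twist1 were too low to be tested. Snai1 was the highest of them, at 0.0492 and 0.0666 in hybrids, 0.0246 and 0.0334 in luminal-keratin and 0.0387 and 0.0739 in basal-keratin barcodes. Of 9 tested fetal and multipotency genes, 2 (Sox11 and Mia) were over luminal-keratin, 1 (Sox11) was over basal-keratin and 4 were under basal-keratin. Procr, a marker of a multipotent basal subset in mice, was 0.0261 and 0.0154 in hybrids, too low to be tested. Sox9 was at the level of both classes, with 1.99 and 2.10 in hybrids, 2.05 and 2.22 in luminal-keratin and 2.16 and 2.17 in basal-keratin barcodes.

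Of 9 tested Notch pathway genes, 1 was over luminal-keratin, the ligand Jag1, at 0.526 and 0.289 in hybrids, 0.0513 and 0.0485 in luminal-keratin and 0.914 and 0.772 in basal-keratin barcodes. The receptor Notch1, known for promoting luminal fate, was 0.608 and 0.687 in hybrids, 0.863 and 0.882 in luminal-keratin and 0.182 and 0.194 in basal-keratin barcodes. Of 11 YAP target genes, 3 (Ccn2, Ankrd1 and Nt5e) were over luminal-keratin, and Ankrd1 alone was above both classes. The matricellular YAP target Ccn2 was 2.81 and 2.10 in hybrids, 0.411 and 0.428 in luminal-keratin and 5.02 and 3.99 in basal-keratin barcodes. Ccn1, another such target, was alike in all, with 4.52 and 4.55 in hybrids, 4.06 and 3.49 in luminal-keratin and 4.85 and 4.4 in basal-keratin barcodes. Of 16 tested genes of collagen receptors and focal adhesions, 2 were over luminal-keratin, the actin cross-linker Flna and the adhesion protein Zyx, which was 1.33 and 1.28 in hybrids, 0.475 and 0.513 in luminal-keratin and 0.379 and 0.487 in basal-keratin barcodes.

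The Wnt, TNF and squamous lists had few members apart from the luminal level. Of 5 tested Wnt genes, 1 was over and 1 under luminal-keratin. Of 8 tested TNF and NF-kB genes, 1 was over luminal-keratin, the neutrophil-attracting chemokine Cxcl1, with 1.23 and 0.902 in hybrids, 0.539 and 0.261 in luminal-keratin and 0.232 and 0.181 in basal-keratin barcodes. Of 10 tested squamous genes, 1 (Sfn, a 14-3-3 protein of stratified epithelium) was over and 2 (Sprr1a and Ly6d) were under luminal-keratin. Sprr1a, a cornified envelope precursor, was 4.85 and 6.98 in hybrids, 13.3 and 19.4 in luminal-keratin and 0.249 and 0.570 in basal-keratin barcodes. None of 13 tested AP-1 and immediate early genes passed 2-fold over or under luminal-keratin, and their median log2 ratio was -0.60 and -0.61. Egr1, an immediate early factor, was 5.22 and 4.39 in hybrids, 8.15 and 7.35 in luminal-keratin and 8.37 and 7.95 in basal-keratin barcodes. Egr1 and the metallothionein Mt1 were among the 10 genes lowest below both classes, none of which reached 2-fold. Mt1 was 6.80 and 10.3 in hybrids, 10.6 and 17.3 in luminal-keratin and 14.4 and 20 in basal-keratin barcodes.

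Of 7 tested genes of the G2 and M phases, 3, the topoisomerase Top2a, the kinase Cdk1 and the ubiquitin ligase partner Ube2c, were at least 2-fold over luminal-keratin barcodes, and 0 were 2-fold over basal-keratin barcodes. The summed level of the list was 4.56 and 2.70 in hybrids, 1.405 and 0.901 in luminal-keratin and 1.78 and 3.20 in basal-keratin barcodes, so in the MATR and SOFT pool hybrids lay below basal-keratin barcodes. Top2a was 0.520 and 0.354 in hybrids, 0.151 and 0.0929 in luminal-keratin and 0.272 and 0.340 in basal-keratin barcodes. A summed level of 5 or more of the list was found in 10.3% and 8.61% of hybrids, 3.03% and 1.55% of luminal-keratin and 3.97% and 4.59% of basal-keratin barcodes. Thinned, these shares were 9.27% and 8.13% of hybrids, 3.20% and 1.75% of luminal-keratin and 4.06% and 4.21% of basal-keratin barcodes. None of 6 tested S phase genes passed 2-fold either way.

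Hybrids were not uniform. Krt14 was the highest basal keratin in 207 and 166 of them, Krt17 in 90 and 43, and Krt5 in 5 and 0. Ankrd1 was 3.70 and 3.92 in Krt17-led hybrids, against 0.501 and 0.650 in Krt14-led ones. Fn1 was 10.98 and 3.80 in Krt17-led hybrids, against 1.73 and 2.95 in Krt14-led ones. Krt8 was 57.2 and 58.9 in Krt17-led hybrids, against 26.7 and 36.7 in Krt14-led ones. Aldh1a3 differed in order between the pools, with 1.41 and 0.980 in Krt17-led hybrids, against 0.588 and 1.38 in Krt14-led ones. So did Tnnt2, with 0.581 and 0.373 in Krt17-led hybrids, against 0.239 and 0.673 in Krt14-led ones. Nes was 0.971 and 0.432 in Krt17-led hybrids, against 0.232 and 0.404 in Krt14-led ones. The basal regulators were lower in Krt17-led hybrids of both pools, with a median sum of 0.712 and 0.293 in Krt17-led hybrids, against 3.87 and 2.26 in Krt14-led ones. Both hashtags were found on 5.56% and 9.30% of Krt17-led hybrids, against 5.80% and 3.61% of Krt14-led ones.

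A second division was by contractile genes. Their sum reached the 10th percentile of basal-keratin barcodes (16.9 and 19.1) in 197 (65.2%) and 116 (55.5%) hybrids, against 3.92% and 3.09% of luminal-keratin and 90% and 89.9% of basal-keratin barcodes. The remaining 105 and 93 hybrids had basal keratins with few contractile transcripts. Krt14 was 11.8 and 13.6 in contractile-high hybrids, against 14.2 and 14.6 in contractile-low ones. Acta2 was 15.6 and 8.73 in the high ones, against 0.185 and 0.195 in the low ones, and Ankrd1 was 2.27 and 2.19, against 0.0655 and 0.0336. Csn3 was 19.7 and 10.6 in contractile-high hybrids, against 59.8 and 26.5 in contractile-low ones. The contractile-high hybrids were deeper, with medians of 22345 and 17444 UMIs, against 10124 and 13562, and carried both hashtags in 8.12% and 6.03%, against 1.90% and 3.23%. Whether depth has a part in the division was not tested.

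Receptor-positive hybrids carried both hashtags more often than the others. Both tags were on 15 of 113 (13.3%, 7.62 to 20.9) and 8 of 64 (12.5%, 5.55 to 23.2) hybrids with a receptor-positive sum of at least 10, against 3 of 189 (1.59%, 0.329 to 4.57) and 2 of 145 (1.38%, 0.167 to 4.89) of those below it. Random pairs of a luminal-keratin and a basal-keratin barcode would give 11% and 13%, as above, from the tag shares of all luminal-keratin barcodes. No such figure was computed for either side of this split. Hybrids without a hashtag call had a median receptor-positive sum of 2.45 and 1.16, against 8.39 and 6.86 in those with a single hashtag. The part of missing tags in these shares was not tested. Ankrd1 was 0.329 and 0.878 in hybrids with the receptor-positive genes, against 2.80 and 1.67 in those without. Krt5 was 2.81 and 1.69 in hybrids with them, against 0.871 and 0.402 in those without. Aldh1a3 was 0.812 and 0.161 in hybrids with them, against 0.963 and 1.99 in those without. The median depth was 23104 and 18887 UMIs with them, against 15815 and 13892 without.

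Over all barcodes with luminal keratins of at least 20, levels were followed by the basal keratin sum, in 7 bins from 0 to 40 or more. Basal keratin sums chose the hybrids, so the last 3 bins (166, 88 and 48 barcodes of COL1 and STIFF, 133, 52 and 24 of MATR and SOFT) are the hybrids and the first 4 the luminal-keratin barcodes. Ankrd1 stood at 0.0107 in the bin at 0 and at 0.559, 2.41 and 4.06 in the 3 hybrid bins of the COL1 and STIFF pool, and at 0.00769 and 0.807, 1.53 and 4.49 for MATR and SOFT. Fn1 stood at 0.121 in the bin at 0 and at 1.66, 5.37 and 16.6 in the hybrid bins of the first pool, and at 0.132 and 2.21, 4.18 and 6.83 in those of the second. Acta2 stood at 0.114 and 0.0690 in the bin at 0 and at 26.1 and 9.98 in the highest bin. These genes were highest in the bin with the most basal keratin.

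Krt19, Areg and Csn3 were lower in the highest bin than in the bin at 0, while Krt7, Epcam and Lcn2 were higher. Krt19 was 75.5 and 81.1 in the bin at 0 and 18.2 and 23.5 in the highest bin, and Areg 23.7 and 21.4 in the bin at 0 and 2.96 and 3.33 in the highest. Csn3 was highest in luminal-keratin barcodes with a basal sum between 0 and 2.5, with 59.98 and 43.3, against 36.9 and 22.6 in the bin at 0 and 10.6 and 9.63 in the highest bin. Krt7 was 5.47 and 6.68 in the bin at 0 and 23.7 and 12.2 in the highest, and Epcam 21.02 and 20.95 in the bin at 0 and 21.9 and 25.3 in the highest. Lcn2 was 74.1 and 57.3 in the bin at 0 and 76.1 and 111.3 in the highest. None of these 3 rose steadily over the bins. Lcn2 was highest in between, at 167 in the 20 to 40 bin of the first pool and 154 in the 2.5 to 5 bin of the second. Krt7 and Epcam were lowest in between, at 3.62 and 18.1 in the first pool and 3.97 and 18.8 in the second. The median depth of the 3 hybrid bins was 16818, 17043.5 and 21509.5 UMIs for COL1 and STIFF, and 16317, 15410.5 and 13350.5 for MATR and SOFT, so depth did not follow the basal sum in the same way in both pools.

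**Figure D4:**
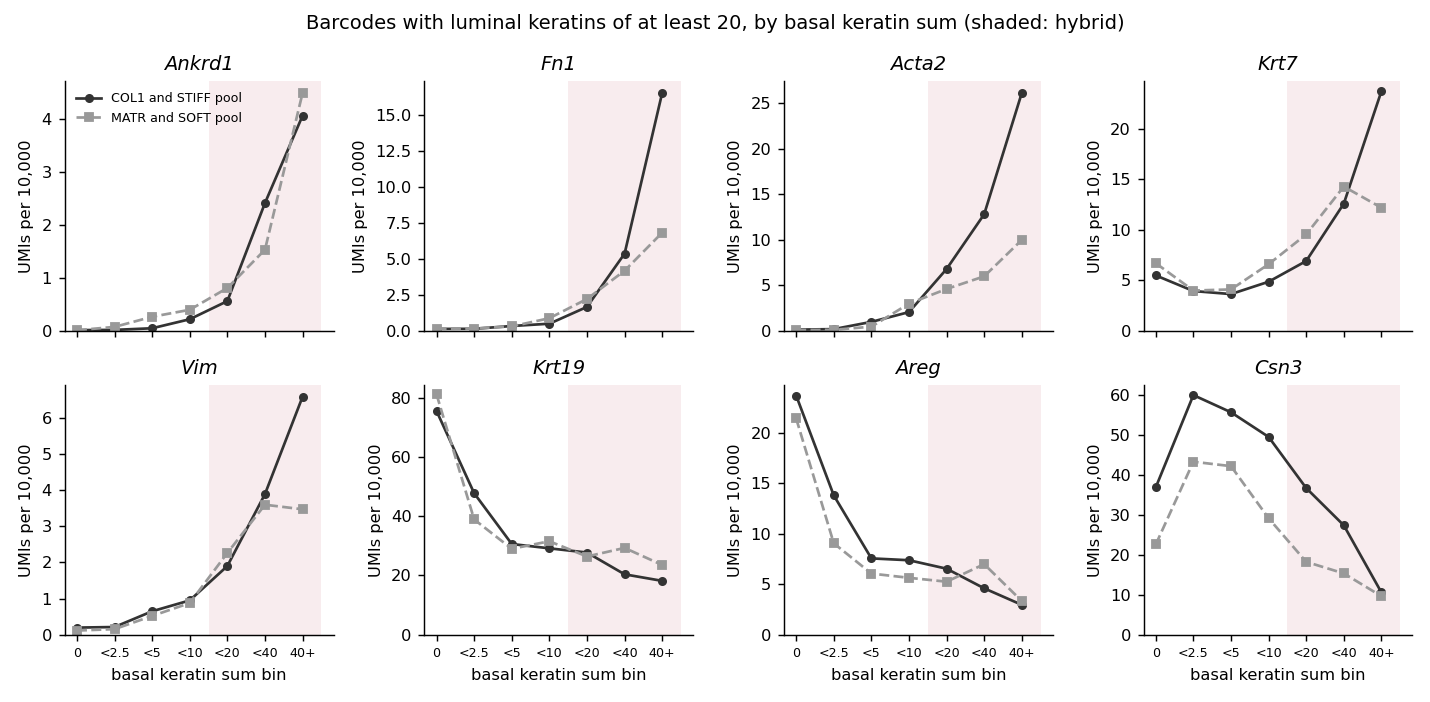
Levels in UMIs per 10,000 (vertical axes) of selected genes over bins of the basal keratin sum (horizontal axes) for barcodes with luminal keratins of at least 20, with a line for each pool and the hybrid bins shaded. Ankrd1 reaches 4.06 and 4.49 in the highest bin, while Areg is 2.96 and 3.33 there, against 23.7 and 21.4 at 0.

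By culture, hybrids were least frequent in MATR under both hashtag rules. Of barcodes with a single HTODemux tag, 112 of 2429 STIFF barcodes (4.61%, 3.81 to 5.52), 77 of 1918 SOFT (4.01%, 3.18 to 4.99), 42 of 1448 COL1 (2.90%, 2.10 to 3.90) and 22 of 2301 MATR barcodes (0.956%, 0.600 to 1.44) were hybrid. The second hashtag rule gave the same order, with 4.2% in STIFF, 3.76% in SOFT, 2.63% in COL1 and 0.935% in MATR. STIFF and SOFT cells both bore hashtag 2, and COL1 and MATR cells both bore hashtag 1. HTODemux called hashtag 2 from 1359 and 1163 counts in the 2 pools, and hashtag 1 from 139 and 218. Within a pool, matrix and hashtag therefore cannot be told apart under either rule. By HTODemux the intervals of STIFF, SOFT and COL1 all overlap one another, while that of MATR lies below them. Without the deepest 10% of barcodes the share was 3.76% in STIFF and 3.86% in SOFT, so that the order of these cultures turned. How many basal cells each culture held depended on the hashtag rule. By HTODemux, 240 of 2429 STIFF, 124 of 1918 SOFT, 185 of 1448 COL1 and 156 of 2301 MATR barcodes passed the basal limit. The second rule gave 1017 of 5048, 438 of 4044, 210 of 1598 and 236 of 2889. Which culture of a pool had the larger share turned between the rules. HTODemux gave no tag to 73.7% and 65.0% of basal-keratin barcodes, against 43.0% and 47.8% of hybrids. As a share of barcodes past the basal keratin limit, with or without luminal keratins, hybrids were 46.7% in STIFF, 62.1% in SOFT, 22.7% in COL1 and 14.1% in MATR, and 20.8%, 34.7%, 20% and 11.4% by the second rule. With 1 culture each, these differences carry no culture-to-culture error.

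**Figure D5:**
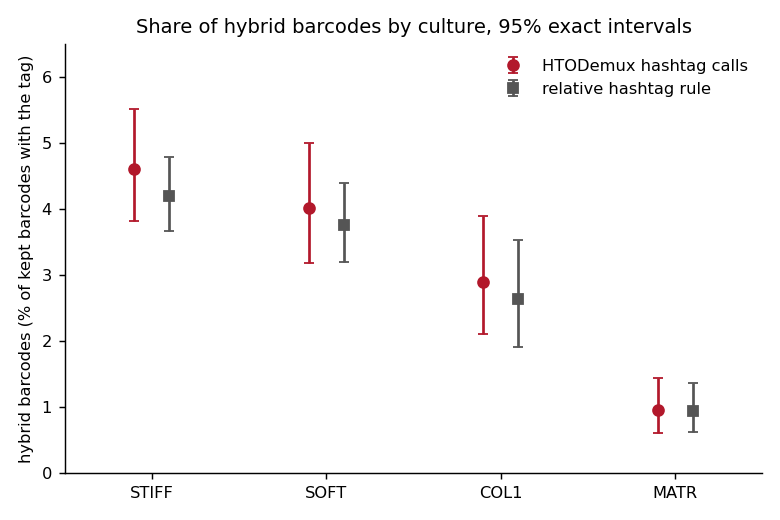
Hybrid barcodes as a percentage of kept barcodes with each culture's hashtag (vertical axis) under both hashtag rules, with exact 95% intervals that cover counting error only. STIFF stands at 4.61% and 4.2% and MATR at 0.956% and 0.935%.

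STIFF and SOFT alone had at least 50 hybrids each by HTODemux, and they were compared on 3.47e+06 and 1.71e+06 UMIs. They were run in different channels, so culture and channel cannot be told apart. Of 5864 genes, 245 (4.18%) were at least 1.5-fold higher and 205 (3.5%) at least 1.5-fold lower in STIFF hybrids. The interval of the ratio, for counting error only, excluded 1 for 22.2% of genes. Contractile genes were higher in STIFF hybrids, 8 of 11 by at least 1.5-fold and 0 lower, with a median log2 ratio of 0.94. Acta2 was 12.5 in STIFF and 3.61 in SOFT hybrids (3.45-fold, 3.17 to 3.76), and 1 barcode held 35.1% of the SOFT molecules. Tagln was 16 in STIFF and 5.87 in SOFT hybrids (2.73-fold). Krt5 was 1.59 in STIFF and 0.615 in SOFT hybrids, and Krt17 12.8 and 6.16, while Krt14 was 12 in STIFF and 12.6 in SOFT hybrids.

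All 8 measured G2 and M phase genes were at least 1.5-fold higher in STIFF hybrids, with a median log2 ratio of 0.82, from few barcodes. Ube2c was 0.959 in STIFF and 0.340 in SOFT hybrids, with UMIs in 18 of the 112 and 11 of the 77 barcodes. Of 13 AP-1 and immediate early genes, 7 were higher in STIFF hybrids, with a median log2 ratio of 0.57. Fos was 24.8 in STIFF and 14.5 in SOFT hybrids. None of the 9 measured YAP targets passed 1.5-fold either way, with a median log2 ratio of 0.01. Ankrd1 was 1.95 in STIFF and 1.64 in SOFT hybrids (1.19-fold, 1.03 to 1.37), and Fn1 5.61 in STIFF and 4.52 in SOFT hybrids (1.24-fold, 1.14 to 1.35). Of 11 receptor-negative luminal genes, among them Csn3 and Trf, 3 were at least 1.5-fold higher and 0 lower in STIFF hybrids, with a median log2 ratio of 0.33. Single genes were Csn3 with 27.8 in STIFF and 8.79 in SOFT and Trf, transferrin, with 13.95 in STIFF and 4.86 in SOFT. The collagen receptor subunit Itga2 was lower, with 0.3 in STIFF and 0.580 in SOFT hybrids, as was Itgb6, a subunit of an epithelial fibronectin receptor, with 0.619 in STIFF and 0.99 in SOFT.

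Of the genes with the highest and lowest ratios, several rested on 1 barcode. Sprr2f, a cornified envelope gene, was 1.19 in STIFF and 0.0293 in SOFT hybrids, with 55.6% of the STIFF molecules in 1 barcode, and Lce1g, of the same kind, was 0.973 in STIFF and 0.0176 in SOFT, with 59.8% in 1 barcode. The kallikrein gene Klk1b27 was 1.01 in STIFF hybrids, from 352 UMIs in 12 barcodes, and 0 in SOFT. More widely shared was Gpx3, a secreted glutathione peroxidase, at 2.60 in STIFF and 0.469 in SOFT hybrids (5.55-fold), with UMIs in 59 and 17 barcodes. Lrg1, a secreted glycoprotein, was 1.52 in STIFF and 0.328 in SOFT hybrids (4.63-fold), in 55 and 15 barcodes, and Ptn, the growth factor pleiotrophin, 1.12 and 0.223 (5.02-fold). Lowest in STIFF hybrids was Ctla2a, a protease inhibitor with a near-identical copy, at 0.265 in STIFF and 2.56 in SOFT, with 76.2% of the SOFT molecules in 1 barcode. Il18r1, a chain of the interleukin 18 receptor, was 0.346 in STIFF and 1.24 in SOFT hybrids, with UMIs in 50 and 60 barcodes, which made it the most widely shared of the 6 lowest.

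Over whole pools, hashtags aside, 239 of 8175 genes (2.92%) were at least 1.5-fold higher and 123 (1.5%) at least 1.5-fold lower in the hybrids of the COL1 and STIFF pool than in those of the MATR and SOFT pool. Contractile genes were 5 of 12 higher and 0 lower, and G2 and M phase genes 9 of 13 higher and 0 lower. Calca, the calcitonin gene, was 0.604 in COL1 and STIFF hybrids and 0.113 in MATR and SOFT hybrids. These pools share no culture, and the comparison includes the STIFF and SOFT hybrids described above.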

How the data were processed

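The members, gene lists and comparisons were chosen with earlier results of these data known. The authors deposited whole UMI counts for every gene in every barcode. The file headers name Cell Ranger 5.0.0, and per the submitters' processing notes Seurat 4.2.0 and a build of mm10 were used as well, while how barcodes were called is not given in the sources used here. Each pool was deposited as a pair of entries with equal gene counts and was read once. Hashtags were called with HTODemux (Seurat 5.3.0, R 4.3.3, quantile 0.99) on barcodes of at least 1000 UMIs and 500 genes. Counts were summed per class and divided by their total (Python 3.11.15, numpy 2.4.6, scipy 1.17.1, pandas 2.3.3), and log2 ratios used a pseudocount of 0.1. Ratios between cultures have exact conditional binomial intervals, used genes of at least 100 UMIs and no pseudocount for the count at 1.5-fold. The ratio between cultures with its interval, and the position between classes, were tested on simulated data without spread between barcodes. The class rule, hashtag calls, thinning and 2-fold calls were not. Doublets were described and not removed, and no doublet caller was run. Named were members of the lists, the 10 genes farthest above or below both classes and over each class, and the 6 highest and 6 lowest between cultures, without rule, mitochondrial, ribosomal and sex-linked genes. Examples within lists, and Gjb2 and Ltbp2, were picked with their values in view. The thresholds, pseudocounts and hashtag rules varied are given at the end.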

Additional observations from a re-analysis of the deposited data

Results flagged for a closer look

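Hashtag 3, which the deposited matrix names give to no culture, had 13315 counts in the first pool, of COL1 and STIFF, against 13477 in the second, in data outside the comparisons made here. For 2 genes of cell division the hybrid level lay on opposite sides of the basal-keratin level in the pools, and the difference was not tested. Mki67, a nuclear protein of dividing cells, had a log2 ratio of hybrid over basal-keratin barcodes of 0.586 in the COL1 and STIFF pool and -0.405 in the MATR and SOFT pool. Cenpf, a centromere protein, had 0.759 and -0.804.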

How the results depend on the processing

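No paired analysis was possible because each matrix was 1 culture and no comparison had replicates. The number of hybrids followed the limits. A basal limit of 5 gave 549 and 410, a basal limit of 20 gave 136 and 76, a luminal limit of 40 gave 182 in the COL1 and STIFF pool, and leaving Krt14 out gave 107 and 50. With both stricter limits the shares were 1.81% in STIFF, 0.991% in SOFT, 0.898% in COL1 and 0.217% in MATR, 84 genes were above both classes and 227 under luminal-keratin. Thinning to 3000 UMIs gave 5.76% in STIFF and 1.78% in MATR, and leaving out the deepest 10% of barcodes gave 3.76% in STIFF and 3.86% in SOFT, which turned their order. It also turned the larger count of STIFF over SOFT, with 216 genes higher and 222 lower. The second hashtag rule gave 9.27% with both tags in the COL1 and STIFF pool. A minimum of 1000 UMIs gave a median of 12058.5 there. Hybrids of at most the luminal-keratin median depth gave 5 genes above both classes, 82 over luminal-keratin, and median positions of 0.470 and 0.580 for luminal and 0.134 and 0.0911 for basal genes. Single-hashtag hybrids gave 0.563 and 0.519 for luminal genes. A pseudocount of 0.05 gave 245 genes over luminal-keratin. A pseudocount of 0.5 gave 9 genes above both classes, 50 over and 25 under luminal-keratin, and 86 over and 78 under basal-keratin. Without the 10% of hybrids highest for the 10 leading genes, chosen after seeing the data, 13 were above both. For STIFF over SOFT a pseudocount of 0.1, added after seeing the data, gave 143 higher and 107 lower genes, one of 0.5 gave 54 and 26, and no filter on low values gave 3593 and 2326. The cause of these shifts was not tested. Of the recomputed values for whole comparisons, 62 stayed within the range set for them and 39 did not. Of those for single genes, 59 stayed within it and 11 did not. Limits are the single culture per matrix, the many barcodes without a hashtag call, pairs of cells of 1 culture, which hashtags cannot show, and hybrid sets under 50 barcodes in COL1 and MATR, for which no comparison across genes was made.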
